A study of Mus musculus with 2 samples.

Results

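Imprinted genes are read from a single parental allele, and 40 mouse genes with this property were followed here across RNA from the gastric corpus. They were chosen as a list by locus and expressed allele, because Peg3 and Meg3 had been seen to be far higher in Hdc-CFP-positive cells. The same contrast is described below, so the values are a description and are not evidence apart from that choice. Of the 40 genes, 36 matched 1 of the 37681 gene identifiers in the count files, and Rian, Mirg, Snrpn and Kcnq1ot1 are not analysed here. Of the 36, 33 were measured, meaning at least 10 counts in at least 1 library, while H19, Dio3 and Magel2 were not.

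Both libraries came from corpus epithelium of the mouse stomach, in C57BL/6 animals that carry an Hdc-CFP transgene. In it a cyan fluorescent protein reports Hdc, the histidine decarboxylase gene of the histamine-making enterochromaffin-like (ECL) cells. The positive library was made from sorted Hdc-CFP+ cells, and the depleted library from corpus epithelial cells depleted of Hdc-CFP. Each group held 1 library. How many mice were used, their age and sex, and how the transgene was built were not stated in the labels. The study asked where the Hdc+ cells come from.

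Gene counts totalled 10736538 for the positive library and 50928524 for the depleted library. Levels are given as CPM, counts per 1000000 gene counts of a library after its total was multiplied by a scaling factor. The 6 markers of ECL cells summed to 83052 CPM in the positive library and 234 CPM in the depleted library, and all 6 were higher. Most of that sum was Chga, at 63985 CPM in the positive library. Markers of other endocrine cells were higher too, among them Ghrl at 4348 CPM against 455 CPM. The sum is therefore not a measure of ECL cells alone. Hdc, whose reporter defined the sort, stood at 8750.2 CPM in the positive library and 21.2 CPM in the depleted one. Neither a replicate check nor a p-value is possible with a single library a group. Brackets give 95% intervals that cover counting error only. Where a gene has 0 counts its level can still be up to that of 3 counts, which is 0.246 CPM for the positive and 0.0668 CPM for the depleted library. In bulk RNA, fewer cells of a type and less RNA per cell cannot be told apart.

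Most imprints are set in the germ line by DNA methylation at CpG sites of control regions. Depending on the locus, the genes around them are then silent on the marked or on the unmarked allele. Most such genes lie in clusters where maternally and paternally expressed genes alternate and where a long non-coding RNA is often made from the allele on which coding genes are silent. Many of them act on fetal growth, and several remain active after birth in endocrine cells and neurons. In some genes imprinting is limited to certain tissues or transcripts, as in Gnas, Grb10, Ube3a, Blcap, Copg2 and Commd1. The counts are not split by allele, so the parental allele named for a gene is background throughout and was not measured.

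The promoter windows of the 4 members with at least 100 counts and a level at least 10-fold higher in the positive library, Peg3, Meg3, Nnat and Dlk1, are shown with that of Plagl1, a paternally expressed gene whose levels were nearly equal in the libraries. Each window runs from 250 bases before to 50 bases after a transcript start, is given 5′ to 3′ along the gene and comes from RefSeq on GRCm38.p6. Capitals mark CpG dinucleotides, the sites that can carry the methyl mark of an imprint. The windows are chr7:6730370-6730669 on the minus strand for Peg3, and chr12:109540746-109541045 for Meg3 (the more upstream of 2 starts), chr2:157559828-157560127 for Nnat, chr12:109452573-109452872 for Dlk1 and chr10:13090582-13090881 for Plagl1, all on the plus strand.
Peg3: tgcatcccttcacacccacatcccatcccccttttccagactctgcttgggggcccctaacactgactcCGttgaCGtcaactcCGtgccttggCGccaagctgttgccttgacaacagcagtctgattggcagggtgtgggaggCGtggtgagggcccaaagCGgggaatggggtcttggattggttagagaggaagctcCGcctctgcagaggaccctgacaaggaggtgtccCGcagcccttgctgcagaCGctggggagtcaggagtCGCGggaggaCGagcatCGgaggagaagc
Meg3: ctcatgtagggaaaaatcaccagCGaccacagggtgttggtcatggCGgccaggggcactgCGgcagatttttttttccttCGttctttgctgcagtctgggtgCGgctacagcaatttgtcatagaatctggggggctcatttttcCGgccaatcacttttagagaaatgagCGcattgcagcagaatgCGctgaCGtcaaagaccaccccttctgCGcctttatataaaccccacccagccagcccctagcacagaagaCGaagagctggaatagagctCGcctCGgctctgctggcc
Nnat: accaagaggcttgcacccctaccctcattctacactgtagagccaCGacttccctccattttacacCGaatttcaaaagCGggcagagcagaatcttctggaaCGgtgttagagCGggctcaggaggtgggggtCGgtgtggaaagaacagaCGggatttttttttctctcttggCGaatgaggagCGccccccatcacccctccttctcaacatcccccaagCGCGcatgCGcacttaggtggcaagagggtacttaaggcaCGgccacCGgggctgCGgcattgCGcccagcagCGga
Dlk1: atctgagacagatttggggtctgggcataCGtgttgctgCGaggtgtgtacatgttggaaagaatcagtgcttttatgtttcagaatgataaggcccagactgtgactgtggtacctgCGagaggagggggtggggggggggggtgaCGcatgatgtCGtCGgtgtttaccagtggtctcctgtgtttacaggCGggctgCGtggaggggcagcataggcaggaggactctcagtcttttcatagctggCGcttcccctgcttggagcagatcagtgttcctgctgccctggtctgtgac
Plagl1: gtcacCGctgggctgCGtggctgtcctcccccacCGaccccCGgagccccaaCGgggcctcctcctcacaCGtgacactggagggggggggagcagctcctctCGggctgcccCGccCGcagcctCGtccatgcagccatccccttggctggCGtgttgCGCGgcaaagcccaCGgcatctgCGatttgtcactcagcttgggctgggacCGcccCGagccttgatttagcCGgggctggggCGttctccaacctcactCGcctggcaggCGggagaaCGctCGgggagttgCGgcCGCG

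These windows hold 13 CpG sites for Peg3, 13 for Meg3, 17 for Nnat, 9 for Dlk1 and 26 for Plagl1. RefSeq gave 52 windows for 34 of the 40 listed genes, with a median of 14.5 CpG sites against 7 over all 32851 windows. TGCCGC is the hexamer that ZFP57, a protector of imprints, binds when it is methylated. Read on both strands, it occurs in 11 of the 52 windows (21.2%) and in 11.6% of all windows. It is in the windows of Meg3, Nnat and Plagl1 and not in those of Peg3 or Dlk1. GCCATNTT, a core of the sites of the zinc-finger protein YY1, is in 3 of the 52 windows (5.77%) and in 6.05% of all, and none of the 5 windows shown holds it. By call, TGCCGC is in a window of 4 of the 12 higher members that had a window, 1 of the 2 lower members and 4 of the 14 members that were neither. A match is a description of the letters, not of a bound site. The Peg3 window shares 263 bases with that of Usp29, which is read from the opposite strand.

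Of the 33 measured members, 16 were higher in the positive library, 2 were lower and 15 were neither. A gene counts as higher or lower when its CPM differs at least 2-fold and its interval does not reach 1. By the same rule 21.9% of all 16682 measured genes were higher and 21.9% lower. The share of members that were higher was 48.5%, which is 45.2% without Peg3 and Meg3, and the share that were lower was 6.06%. The contrast chose the list, so nothing is read from the distance to the background. The median log2 ratio of the measured members was 0.99, or 0.84 without Peg3 and Meg3, against -0.05 over all measured genes. The members together took 0.473% of the gene counts of the positive library and 0.0676% of those of the depleted library. Peg3 and Meg3 made up 74.1% of the member counts in the positive library and 2.93% in the depleted library.

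**Figure D1:**
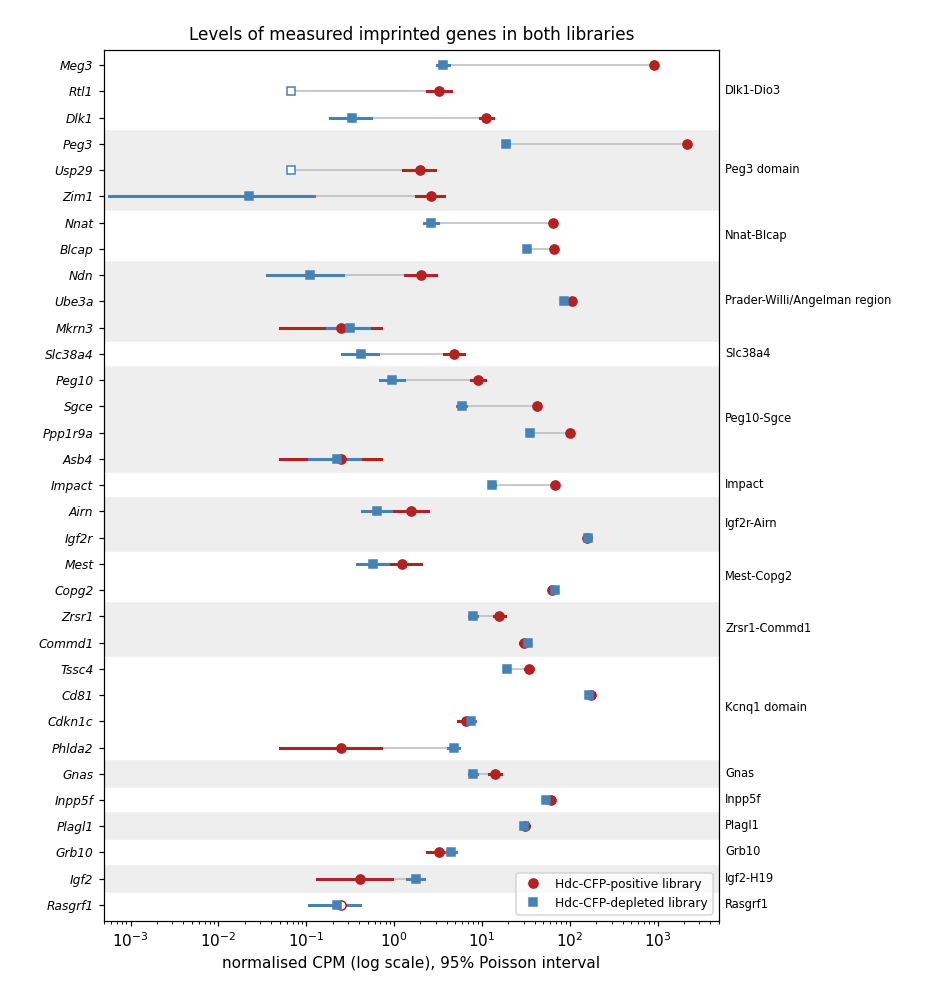
Normalised CPM (log axis) of the 33 measured members in the Hdc-CFP-positive library (circles) and the depleted library (squares), with 95% Poisson intervals, grouped by locus and open at the 3-count limit where a library had 0 counts. Peg3 reaches 2180.3 CPM and Meg3 911 CPM in the positive library, against 18.9 and 3.61 CPM in the depleted one, while Igf2r and Cd81 nearly coincide.

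The Peg3 domain on chromosome 7 was higher in the positive library at each of its 3 listed genes. Peg3 (ENSMUSG00000002265), a paternally expressed zinc-finger transcription factor linked to growth and maternal behaviour, had 26550 counts in the positive library and 848 in the depleted library. That is 2180.3 CPM against 18.9 CPM, a 115-fold higher level [108 to 124]. Usp29, a deubiquitinase gene also read from the paternal allele and from the shared start region, had 24 counts against 0. It was at least 29.5-fold higher with the depleted level set at 3 counts, and the lower end of its 95% interval was 22.2. Zim1, a maternally expressed zinc-finger gene beside them, had 32 counts against 1, a ratio of 118 [19.7 to 4804.6]. The paternal and the maternal genes of the domain thus stood on the same side, at very different levels. Peg3 reached 164 CPM per kilobase of exon in the positive library, while Zim1 reached 0.325 and Usp29 0.109 CPM per kilobase.

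In the Dlk1-Dio3 cluster on chromosome 12 the 3 measured genes, coding and non-coding, were all higher. Meg3 (ENSMUSG00000021268), a maternally expressed long non-coding RNA that acts in the nucleus on chromatin, had 11096 counts in the positive library and 162 in the depleted library. Its level was 911 CPM against 3.61 CPM, 253-fold higher [216 to 297]. Dlk1, a paternally expressed membrane protein with EGF repeats known from fetal tissue, adipocyte precursors and endocrine cells, had 137 counts against 15. It stood at 11.3 CPM in the positive library and 0.334 CPM in the depleted library, 33.7-fold higher [19.7 to 61.8]. Rtl1, a paternally expressed gene derived from a retrotransposon and needed in the placenta and in muscle, had 40 counts against 0. It was at least 49.2-fold higher with the depleted level set at 3 counts, and the lower end of its 95% interval was 38.2. In the current annotation 8.40% of the Rtl1 exon bases overlap microRNA genes, most of them on the opposite strand, and the strand setting of the counting was not given. Reads of maternal non-coding transcripts from that strand could therefore be among the 40 counts, which cannot be assigned to the paternal coding gene alone. Dio3, the deiodinase that inactivates thyroid hormone, had 0 counts in both libraries, so its level lies under the limits given above.

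Levels of these genes differed by orders of magnitude within the positive library. Per kilobase of exon Meg3 stood at 50.4 CPM, Dlk1 at 1.99 CPM and Rtl1 at 0.517 CPM. Between the outermost members of the cluster the files also list small RNA genes, many of which lie within the maternal non-coding transcripts. The 22 listed snoRNA genes had 50 counts in the positive library and 0 in the depleted library, and 11 of them had a count. The 53 listed microRNA genes had 13 counts against 1, spread over 10 genes. The libraries were not made for small RNAs, so these counts do not measure the mature forms.

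On chromosome 2, Nnat and Blcap form a nested pair, with Nnat inside an intron of Blcap. Nnat, a paternally expressed small proteolipid of the endoplasmic reticulum known from brain and from insulin-secreting cells, had 781 counts in the positive library and 119 in the depleted library. It stood at 64.1 CPM against 2.65 CPM, 24.2-fold higher [19.9 to 29.6]. Blcap, a small membrane protein gene in the surrounding unit, was also higher but just past the limit, with 815 counts against 1459, or 66.9 CPM against 32.5 CPM (2.06-fold [1.89 to 2.25]). With scaling factors over all genes with a count (TMM) its ratio was 1.91 and the call was lost. In the positive library Nnat was the higher of the pair, at 35.1 CPM per kilobase of exon against 22.0 for Blcap. In the depleted library Blcap was the higher, at 10.7 CPM per kilobase against 1.45 for Nnat.

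The Peg10-Sgce cluster on chromosome 6 had 3 of 4 members higher. Peg10, a paternally expressed retrotransposon-derived gene, stood at 9.03 CPM in the positive library and 0.958 CPM in the depleted library (110 counts against 43, 9.43-fold [6.57 to 13.8]). Sgce, which encodes epsilon-sarcoglycan and is paternally expressed, stood at 42.5 CPM against 5.90 CPM (517 counts against 265, 7.19-fold [6.19 to 8.37]). Ppp1r9a, the neurabin gene for an actin-binding scaffold of neurons, read mainly from the maternal allele in some tissues, stood at 99.7 CPM against 35.3 CPM (1214 counts against 1584, 2.83-fold [2.62 to 3.05]). Asb4, a maternally expressed SOCS-box gene, had only 3 counts against 10, and no difference was detectable at this depth (ratio 1.11 [0.196 to 4.30]).

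Paternally expressed genes of 3 other loci were also higher. Impact, which restrains the translation regulator GCN2 and is abundant in neurons, had 838 counts in the positive library and 588 in the depleted library, or 68.8 CPM against 13.1 CPM (5.26-fold [4.72 to 5.85]). Slc38a4, an amino acid transporter gene known from liver and placenta, had 59 counts against 19, or 4.85 CPM against 0.423 CPM (11.5-fold [6.73 to 20.3]). Ndn, the necdin gene of the Prader-Willi region, a MAGE family protein of postmitotic neurons, had 25 counts against 5, or 2.05 CPM against 0.111 CPM (18.4-fold [6.93 to 61.7]). Per kilobase of exon, Impact reached 13.4 CPM, Slc38a4 1.14 CPM and Ndn 0.556 CPM in the positive library, far under the 164 CPM of Peg3.

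Ndn was 1 of 3 measured genes of its region, and the others were neither higher nor lower. Magel2, another MAGE gene, had 0 counts in both libraries, and Mkrn3, a RING-finger gene known for its part in the timing of puberty, had 3 counts against 14 (ratio 0.790 [0.146 to 2.83]). Ube3a, the ubiquitin ligase gene that is maternal in neurons and biallelic in most other cells, stood at 106 CPM in the positive library and 85.1 CPM in the depleted library (1.24-fold [1.17 to 1.32]) and did not reach 2-fold. In the annotation 27.3% of the Ube3a exon bases overlap genes on the opposite strand, which are not among the rows used here.

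**Figure D2:**
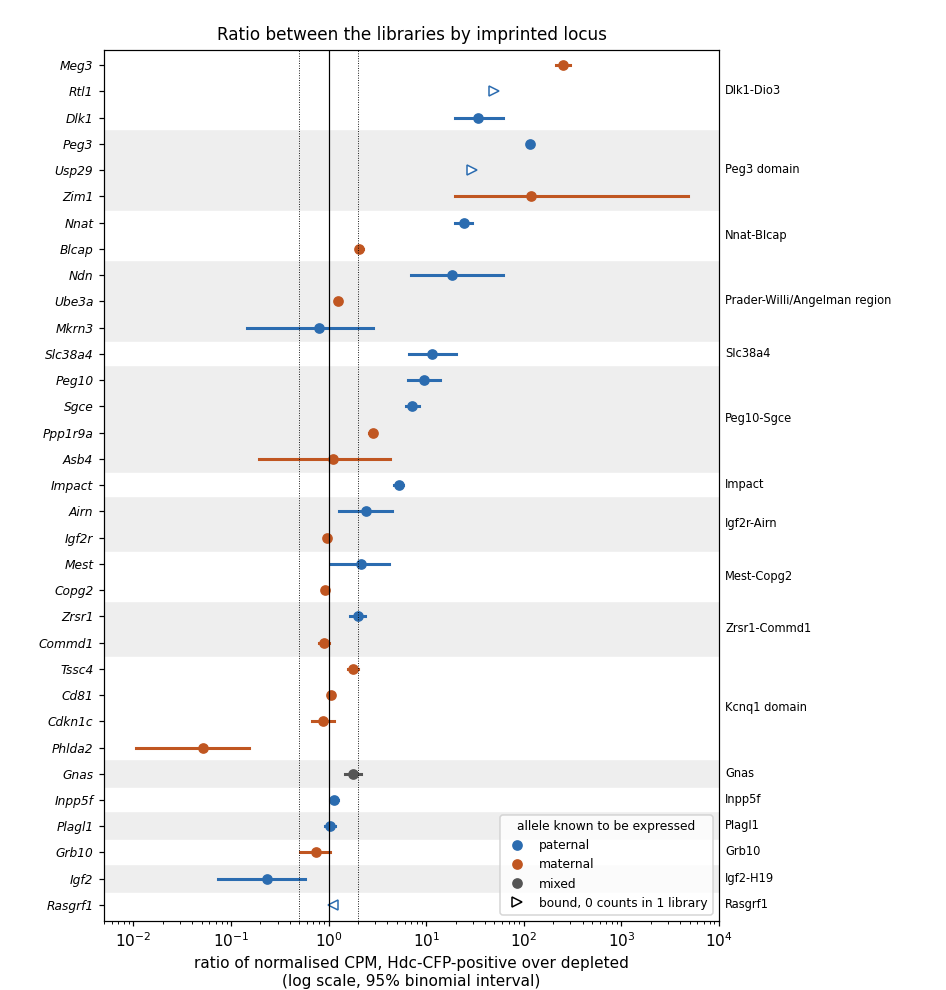
Ratio of normalised CPM in the Hdc-CFP-positive over the depleted library (log axis) for the 33 measured members with 95% binomial intervals, grouped by locus and coloured by the parental allele known to be expressed. Open triangles are bounds for genes with 0 counts in a library, and dotted lines mark 2-fold: 16 members lie past it on the right with intervals clear of 1, and Phlda2 and Igf2 on the left.

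In 3 pairs of overlapping or nested genes the paternal gene had the larger ratio. Airn, the paternal non-coding RNA that silences Igf2r in cis, had 19 counts in the positive library and 29 in the depleted library (1.56 CPM against 0.646 CPM, 2.42-fold [1.28 to 4.46]). Igf2r itself, which carries IGF2 and mannose-6-phosphate proteins to lysosomes, had 156 CPM against 161 CPM (ratio 0.970 [0.922 to 1.02]). Mest, a paternal gene of the hydrolase fold that is high in the fetus, had 15 counts against 26 (1.23 CPM against 0.579 CPM, 2.13-fold [1.05 to 4.17]). Copg2, the coat protein gene that overlaps Mest tail to tail, stood at 62.7 CPM against 68.3 CPM (ratio 0.919 [0.847 to 0.995]). Mest is the measured member that passed the limit with the interval nearest to 1, and with TMM factors over all genes with a count its ratio was 1.97 and the call was lost. Zrsr1, a splicing factor gene inside an intron of Commd1, lay just outside it, at 15.8 CPM against 7.97 CPM (1.99-fold [1.66 to 2.37]), and Commd1 had 30.0 CPM against 33.2 CPM (ratio 0.902 [0.802 to 1.01]). In the annotation 23.1% of the Mest exon bases overlap Copg2 and 9.17% of those of Zrsr1 overlap Commd1, on opposite strands. The strand setting was not given, so reads of the partner gene could be added to these counts or be missing from them. Airn and Igf2r also lie on opposite strands but share no exon bases there. Unspliced Igf2r reads could thus be among the few Airn counts, and this was not tested.

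Igf2, the paternally expressed fetal growth factor on distal chromosome 7, had 5 counts in the positive library and 79 in the depleted library, or 0.411 CPM against 1.76 CPM, 4.28-fold lower [1.76 to 13.6]. Its maternally expressed neighbour H19, a non-coding RNA, had 3 counts against 1 and was not measured (ratio 11.1 [0.888 to 581]). The 6 fibroblast markers summed to 0.739 CPM in the positive library and 18.9 CPM in the depleted library, with 5 of 6 lower and Col3a1 and Pdgfra at 0 counts in the positive library, and their part in the Igf2 value was not tested. In the GENCODE M21 annotation 64.5% of the Igf2 exon bases overlap another gene, most of them a gene on the same strand that is not among the rows used here, so the effect on its count is not known.

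Phlda2 (ENSMUSG00000010760), a maternally expressed brake on placental growth, was the other lower member. It had 3 counts in the positive library and 214 in the depleted library, or 0.246 CPM against 4.77 CPM, a depleted level 19.3 times as high [6.53 to 94.5]. Cdkn1c, the maternal cell-cycle inhibitor p57, stood at 6.65 CPM against 7.55 CPM (ratio 0.881 [0.683 to 1.13]), and no difference beyond counting error was seen. Cd81, a tetraspanin gene that is imprinted in placenta, had 177 CPM against 166 CPM (1.07-fold [1.02 to 1.12]), and Tssc4, a splicing cofactor gene of the same cluster, had 34.3 CPM against 19.2 CPM (1.79-fold [1.59 to 2.01]). Of the 4 measured members of the Kcnq1 domain, Phlda2 was thus lower and the other 3 were neither. The surface, parietal and chief cell markers summed to 20384 CPM in the positive library and 216175 CPM in the depleted library, with 6 of 7 lower and none at 0, and their part in the Phlda2 value was not tested.

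The remaining measured members were neither higher nor lower. Plagl1, a paternal zinc-finger factor that restrains cell growth and is linked to transient neonatal diabetes, had 376 counts in the positive library and 1349 in the depleted library, or 30.9 CPM against 30.0 CPM (1.03-fold [0.914 to 1.15]). Grb10, an adaptor that damps insulin and IGF receptor signals, had 3.28 CPM against 4.45 CPM (ratio 0.737 [0.512 to 1.04]). Inpp5f, an inositol phosphatase gene, had 61.5 CPM against 54.1 CPM (1.14-fold [1.05 to 1.23]). Gnas, the gene for the stimulatory G protein alpha subunit, had 14.0 CPM against 7.91 CPM (1.78-fold [1.47 to 2.14]) and 22.0% of its exon bases overlap antisense genes. Rasgrf1, a Ras exchange factor gene of the brain, had 0 counts in the positive and 10 in the depleted library, too few for a difference to be detectable.

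Set by expressed allele, 12 of the 18 measured paternal genes were higher and 1 was lower, with a median log2 ratio of 2.62. Of the 14 measured maternal genes 4 were higher, namely Meg3, Zim1, Ppp1r9a and Blcap, and 1 was lower, with a median of 0.12. Over all measured genes 21.9% were higher and 21.9% lower, with a median of -0.05. The difference between the allele classes was not tested, since genes of a cluster share their control and are not replicates. The maternal class also holds genes imprinted only in certain tissues or transcripts, among them Grb10, Ube3a, Blcap, Copg2, Commd1, Cd81 and Ppp1r9a. Neither median is therefore that of genes known to be imprinted in this tissue. Summed levels were 2499.8 CPM in the positive library and 138 CPM in the depleted library for the paternal genes, and 1657 CPM against 621 CPM for the maternal genes. Meg3 and Peg3 carried much of either sum in the positive library. Per kilobase of exon the highest members in the positive library were Peg3 (164 CPM), Cd81 (61.4 CPM), Meg3 (50.4 CPM), Nnat (35.1 CPM) and Blcap (22.0 CPM). In the depleted library they were Cd81 (57.5 CPM), Igf2r (17.3 CPM), Copg2 (13.3 CPM), Blcap (10.7 CPM) and Tssc4 (10.4 CPM). Cd81 thus stood near the top of either library at a like level, while Peg3 at 1.42 CPM and Meg3 at 0.199 CPM per kilobase were low in the depleted library.

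**Figure D3:**
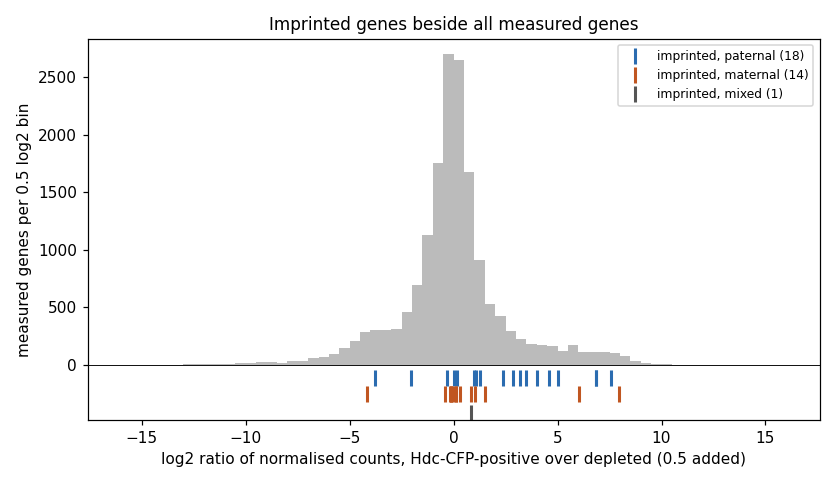
Histogram of the log2 ratio, Hdc-CFP-positive over depleted library with 0.5 added to the counts, of all 16682 measured genes, with ticks for the 18 paternal, 14 maternal and 1 mixed imprinted genes below it. The median of the members is 0.99 and that of all measured genes -0.05. Rtl1, Usp29 and Rasgrf1, with 0 counts in a library, are placed by the added 0.5.

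Genes that flank the imprinted loci gave a local comparison. For each of 16 loci the nearest measured protein-coding gene on either side, outside the imprinted lists, was taken in the order of the GENCODE M21 annotation, which gave 31 genes. The flanks of the Prader-Willi/Angelman region are not reported here, so the counts do not cover every locus. Of the 31 genes 3 were higher in the positive library, 9 lower and 19 neither, with a median log2 ratio of -0.18. Over all measured genes 21.9% were higher and 21.9% lower by the same rule, with a median of -0.05. Not all of them are plain neighbours. Trpm5, taken beside Igf2-H19, overlaps the Kcnq1 domain member Tssc4, and Mrpl23 serves as a flank of both loci. Col1a2, beside Peg10-Sgce, is also among the fibroblast markers. Trpm5 and Col1a2 are among the lower genes. Beside the Dlk1-Dio3 cluster, Wdr25 and Ppp2r5c had ratios of 1.20 [0.896 to 1.60] and 0.833 [0.781 to 0.889]. Beside the Peg3 domain, the zinc-finger genes Zfp28 and Zfp954 had ratios of 3.59 [2.20 to 5.84] and 0.765 [0.618 to 0.940]. Beside Nnat and Blcap, Src and Ctnnbl1 had ratios of 0.602 and 0.882. Of these 6 flanking genes Zfp28 was higher and the other 5 were neither. The loci named here hold the members with the largest ratios, so the distance between members and flanks is a description only. A flank with a large ratio was Amigo2, an adhesion gene beside Slc38a4, which had 295 counts in the positive library and 25 in the depleted library (43.5-fold [28.9 to 68.3]).

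**Figure D4:**
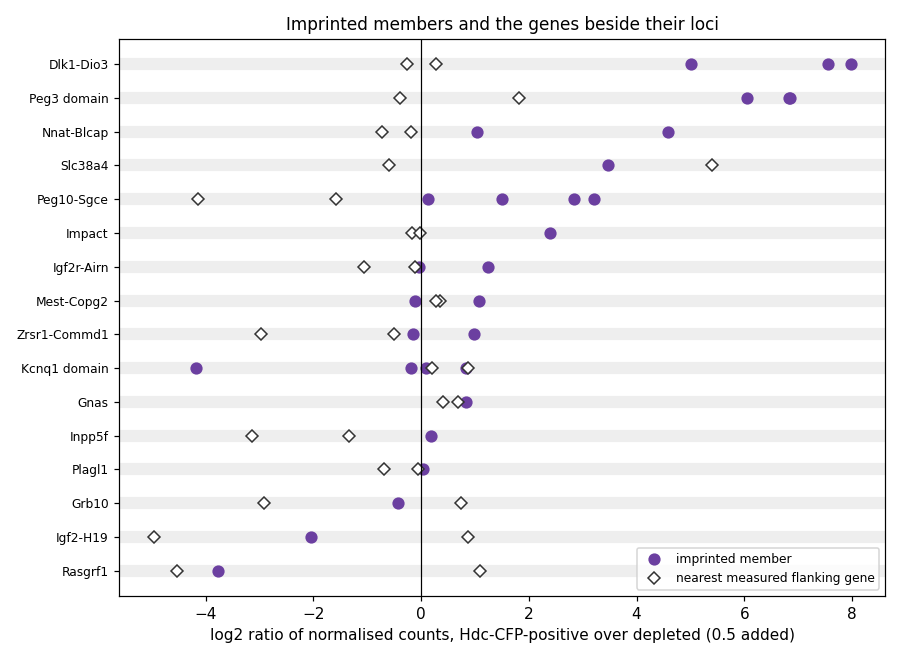
Log2 ratio, Hdc-CFP-positive over depleted library with 0.5 added to the counts, of imprinted members (filled circles) and of the nearest measured flanking genes (open diamonds) at 16 loci. At the Dlk1-Dio3 cluster, the Peg3 domain and Nnat-Blcap the highest member reaches 4.59 or more while no flanking gene exceeds 1.82, and at Slc38a4 a flanking gene, Amigo2, lies above the member.

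A further list of 42 imprinted genes was read for context, of which 37 were matched and 27 measured. Among them 6 were higher in the positive library (22.2%) and 7 lower (25.9%), beside 21.9% of all measured genes in each direction, with a median log2 ratio of -0.39. The 6 with the most CPM in either library were Ddc, Pon2, H13, Nap1l5, Nap1l4 and Kcnq1. Ddc, the decarboxylase of monoamine synthesis, imprinted only in some heart transcripts, had 771 CPM against 7.26 CPM (106-fold [95.04 to 119]). Nap1l5, a paternal gene of the nucleosome assembly family, had 1691 counts in the positive library and 35 in the depleted library, or 139 CPM against 0.779 CPM (178-fold [128 to 257]). Pon2, a paraoxonase gene beside Peg10, had 53.4 CPM against 517 CPM (9.68-fold lower [8.95 to 10.5]). The potassium channel gene Kcnq1, the namesake of the Phlda2 cluster, had 51.9 CPM against 105 CPM (2.01-fold lower [1.85 to 2.19]). H13, a signal peptide peptidase gene, and Nap1l4 did not reach 2-fold, with ratios of 1.43 [1.36 to 1.50] and 1.08 [1.02 to 1.15]. Chosen after their values were seen, Zdbf2, a paternal gene with 42 counts against 4, was 38.7-fold higher [14.0 to 149], while Slc22a18, a maternal transporter gene next to Phlda2, was 4.37-fold lower [3.87 to 4.96]. The 7 lower genes include Dcn, which is also among the fibroblast markers.

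Genes known to set, keep or erase imprints were also read, without a claim that each acts on every member. Among the 19 of 22 listed genes that were measured, 2 were higher (10.5%) and 2 lower (10.5%), beside 21.9% of all measured genes in each direction. Their median log2 ratio was -0.14, against -0.05 over all measured genes. The 6 with the most CPM in either library, the histone methyltransferase gene Ehmt2, Trim28, the scaffold that ZFP57 recruits, the DNA methyltransferase genes Dnmt3a and Dnmt1, the dioxygenase gene Tet3 and the insulator factor gene Ctcf, all had ratios between 0.622 and 1.99. Dnmt3a lay just outside the limit, at 167 CPM in the positive library and 84.1 CPM in the depleted library (1.99-fold [1.88 to 2.10]). The 4 that passed are named after their values were seen. Tet1, whose product oxidises methylcytosine, had 385 counts against 87 (16.3-fold higher [12.9 to 20.8]), and Zfp57 had 10 counts against 9 (4.10-fold higher [1.50 to 11.4]). Uhrf1, which guides Dnmt1 to newly copied DNA and is high in dividing cells, was 12.3-fold lower [7.92 to 20.3], and Hells, a chromatin remodeller of dividing cells, 4.46-fold lower [3.39 to 5.96].

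Markers of other cells that a sort could hold also moved between the libraries. Of 4 corpus endocrine markers other than those of ECL cells, Ghrl, Sst, Tph1 and Gcg, all 4 were higher, and they summed to 5146 CPM in the positive library and 546 CPM in the depleted library. Among enteric neuron and glia markers, Elavl4 had 300 counts in the positive library and 4 in the depleted library, Ret had 916 counts against 45, and Sox10 was at 0 in both libraries. Of 6 pancreatic acinar markers 4 were measured and higher, with sums of 1538 CPM against 3.85 CPM, and Cpa1 was at 0 in both. Of 6 pancreatic islet markers 2 were measured, Iapp and Ppy, with sums of 2.79 CPM against 0.334 CPM, and Ins1, Ins2 and Mafa were at 0 in both libraries. Of 6 mast cell markers 4 were higher, with sums of 139 CPM against 41.4 CPM. The 5 macrophage markers were all lower, with sums of 7.31 CPM against 2039.9 CPM, and of 5 endothelial markers 3 were lower and 1 higher, with sums of 2.71 CPM against 6.46 CPM. The part of these cells in the members' values was not tested.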

How the data were processed

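RNA of 2 libraries was measured, 1 per group, with groups taken from the cell type labels. Per the labels' protocols, RNA was purified on silica columns (RNeasy) and the TruSeq RNA kit served for library making. The submitters' processing notes name TopHat2 2.0.07, HTSeq and the mm9 genome. No source used here gives the strand setting, annotation release or read length. The authors deposited raw counts of reads for each Ensembl gene, without normalisation. The summary rows naming no gene were left out of library sizes: they took 9.20% of the positive and 4.91% of the depleted alignments as lying outside genes, 1.45% and 1.11% as ambiguous between genes, and 24.2% and 34.3% as aligned at several places. Reads of overlapping genes can therefore be missing.

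Symbols, exon lengths and overlaps came from GENCODE M21 (GRCm38), which named 32642 of 37681 identifiers, and no coordinate of the counting build is given. Promoter windows are RefSeq's, on GRCm38.p6. Libraries were scaled with TMM (trimmed mean) factors by edgeR 4.0.16 under R 4.3.3, from genes with at least 10 counts in a library, 1.13 for the positive and 0.882 for the depleted library. Ratios are positive over depleted, with exact Clopper-Pearson 95% intervals of the split of counts, and CPM values have exact Poisson intervals (SciPy 1.17.1). Log2 ratios had 0.5 added to the counts in proportion to library size. A ratio against 0 counts is a bound at 3 counts per library. Levels per length are CPM per 1000 bases of merged exons. The calculation was tested on simulated counts.

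All 40 members may be named, of the other lists up to 6 genes with the most CPM in either library, and of the marker lists any gene. Any further gene is marked as picked with its values known. The members, lists and rules were chosen with earlier results of these data known. Alternatives were other scalings (DESeq2 1.42.0 among them), count minimums, a 4-fold limit and the length of the longest transcript. Flanking genes of 1 locus and some enteric markers are not reported here.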

Additional observations from a re-analysis of the deposited data

How the results depend on the processing

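With 1 library a group, no library could be left out, and no paired analysis was possible because each group held 1 library. The number of members called higher, 16, was between 14 and 19 under the other scalings, 14 without Peg3 and Meg3, 12 at 4-fold with the interval beyond 2-fold, 11 of 17 measured without members whose exons overlap another gene, and 10 of 24 measured with a minimum of 50 counts. That minimum leaves out Rtl1, Usp29, Zim1, Ndn, Airn and Mest, which were higher, and Asb4, Mkrn3 and Rasgrf1, which were neither. The 2 lower calls became 1 at 4-fold and 1 without overlapping members. The median log2 ratio of the members, 0.99, was 1.35 with library totals alone, 1.01 with DESeq2 size factors, 1.03 with upper-quartile factors, 0.88 with TMM over all genes with a count, 1.02 with no minimum, 0.83 with a minimum of 50 counts, 0.84 without Peg3 and Meg3 and 1.50 without overlapping members. Of all measured genes 28.4% were higher with library totals and 20.5% with TMM over all genes with a count, against 21.9% in the main setting. The share over all genes was not computed at 4-fold, at the minimum of 50 counts or without overlapping genes, so those member counts lack a background. Library totals moved the median over all genes to 0.31, against -0.05, and the share of higher among all called genes to 62.9%, against 50.01%. Under them Gnas, Tssc4 and Zrsr1 passed 2-fold, and Igf2r, Copg2, Commd1, Cdkn1c and Mkrn3 turned to ratios between 1.02 and 1.25. Zrsr1 also passed with DESeq2 and upper-quartile factors, and Blcap and Mest were lost with TMM over all genes, where Cd81 and Plagl1 turned to 0.989 and 0.952. No called member turned under any of these scalings. In the list of other imprinted genes the 7 lower calls became 4 at 4-fold. In the list of imprint maintenance and erasure genes the 2 higher calls became 4 with library totals, 1 with a minimum of 50 counts and 1 at 4-fold. The alternatives without Peg3 and Meg3, without overlapping members and with TMM over all genes were added after seeing the data. Genes under 10 counts in both libraries were left uncalled, and members near that depth have wide intervals.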
